A study of Mus musculus with 15 samples.

Results

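Heart microvascular endothelium was compared with the microvascular endothelium of brain and of liver, on 5 heart arrays against 5 brain and 5 liver arrays, 15 in all. The genes described are those that moved the same way in heart against each of the other tissues. Of 19938 genes measured, 181 were enriched in heart and 62 were depleted. Every group came from Tie2-GFP mice on the FVB background, 8 to 12 weeks old, with males and females mixed 1:1, so that green fluorescent protein, by which the cells were sorted, was driven by the promoter of Tek (Tie2), an endothelial receptor gene. A heart sample was a pool of 4 mice, a brain sample of 6 and a liver sample of 2. Visible large vessels were cut away before a digestion of 60 min, which used collagenase I for heart at 37 °C, collagenase with DNase followed by trypsin for brain, and dispase at room temperature followed by a Percoll gradient for liver. In this design tissue, enzymes, digestion temperature and number of mice cannot be told apart. From 5 ng of total RNA per sample, amplified cDNA was hybridised to an Affymetrix gene array, and the deposited values are log2 levels from robust multi-array averaging (RMA), in which 1 unit is a doubling of signal.

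The capillaries of the heart run between muscle cells that burn mainly fatty acids. Their endothelium frees fatty acids from circulating lipoproteins with lipoprotein lipase, takes them up through CD36 and fatty acid binding proteins, and hands them on to the cardiomyocytes. The transcription factors Meox2 and Tcf15 are known to act together in heart endothelium to promote this uptake, and the nuclear receptor PPARγ controls many of the same genes. The capillaries lie directly against the cardiomyocytes, with pericytes on their wall and fibroblasts between them.

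A gene was called enriched when its adjusted p-value was under 0.05 against brain and against liver and both log2 differences were at least 1, and depleted by the mirrored rule. The 181 enriched genes were 0.908% of the genes tested and the 62 depleted genes 0.311%. Without a minimum difference, 743 genes were higher in heart against each tissue (3.73%) and 651 were lower (3.27%). Median levels of the arrays over all genes ran from 5.98 to 6.11, and pairs of heart arrays had an r of 0.978 to 0.991, computed across genes, which are not independent replicates. Each array is a separate pool, so the p-values measure the spread between pools. That spread was estimated for each gene over all tissues together. For a gene that varied more in heart than in brain and liver, it is smaller than the spread between heart pools.

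The markers listed for heart endothelium, Aqp7, Meox2, Tcf15, Lpl and Rbp7, were all enriched, and for each of them every heart array lay above every brain and liver array. They were chosen with earlier results of these data known, so this describes them and is no independent check of the label. Of 29 measured pan-endothelial genes, 0 were enriched or depleted, and their mean was 9.94 ± 0.04 in heart, 10.10 ± 0.13 in brain and 9.90 ± 0.09 in liver (SD, n = 5 each). The list means thus lay close together in the 3 groups. The 0 calls are to be read beside 0.908% enriched and 0.311% depleted among all genes. Smaller differences went in both directions. Against each tissue 3 of the 29 were higher in heart, beside 3.73% of all genes, Cdh5 among them (1.26-fold). Another 4 were lower, beside 3.27% of all genes. Among these were Cldn5 (1.91-fold), Ptprb (1.29-fold) and Tek (1.23-fold), whose promoter drives the GFP.

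The heart arrays also held RNA of heart muscle, in unequal amounts. The mean of 16 sarcomere genes, which encode the contractile apparatus of muscle, was 8.84, 7.90, 8.43, 7.28 and 7.34 in heart arrays 1 to 5, against 5.62 ± 0.09 in brain and 5.52 ± 0.12 in liver (SD, n = 5 each). Heart 1 and heart 3 were the highest, heart 4 and heart 5 the lowest, and all 5 lay above brain and liver. In RNA from many cells, more cells of a type and more RNA per cell cannot be told apart. To separate genes that rose and fell with this signal from genes that did not, the slope of each gene's level on the sarcomere mean was computed over the 5 heart arrays, leaving the gene itself out of that mean. A slope of 1 means that a gene changed among the heart arrays as much as the sarcomere mean did. A gene was said to follow the sarcomere genes when its slope was at least 0.5. The slope describes 5 arrays and carries no test.

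By this measure 49 of the 181 enriched genes followed the sarcomere genes (27.1%) and 132 did not, while 443 of all genes tested reached that slope (2.22%). Of the 62 depleted genes, 11 followed (17.7%). The enriched calls and the slopes both use the heart arrays, so these shares are descriptions. Both kinds of gene reached large differences between tissues, as the plot of slope against difference shows.

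**Figure D1:**
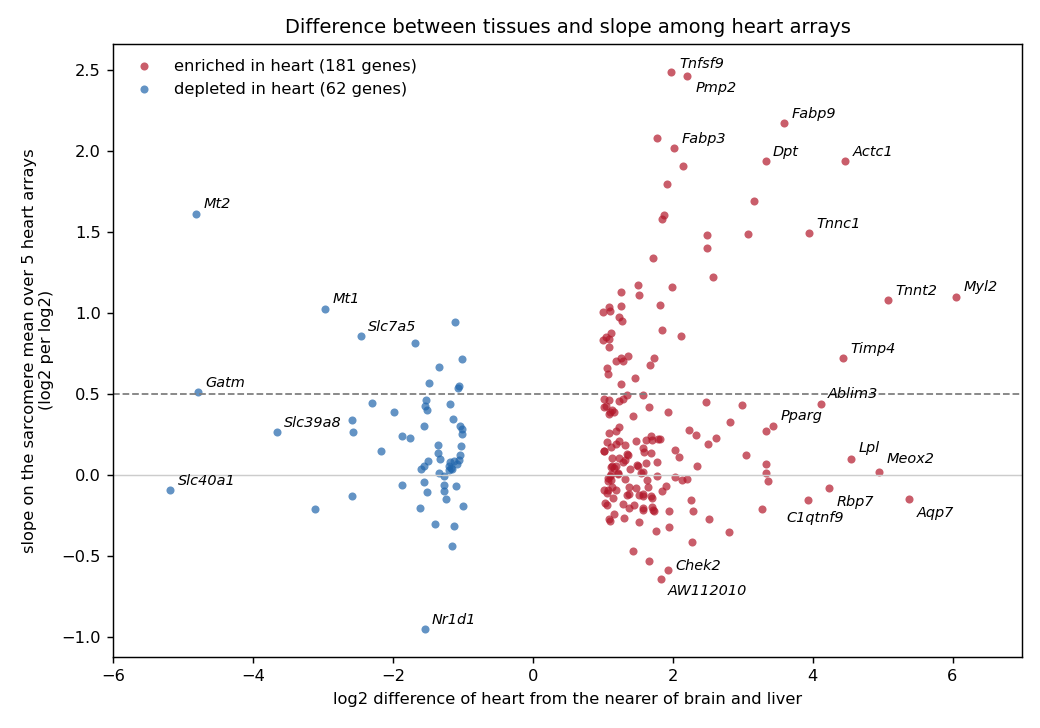
Each point is a called gene, placed by its log2 difference of heart from the nearer of brain and liver (horizontal axis) and by its slope on the sarcomere mean over the 5 heart arrays (vertical axis, log2 per log2); the dashed line marks the slope of 0.5. Meox2, Aqp7, Lpl and Rbp7 lie near a slope of 0 at differences from 4.23 to 5.38, whereas Myl2, Tnnt2 and Actc1 lie above a slope of 1 at differences from 4.46 to 6.05.

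Promoters of 4 genes are shown because they stand for the 2 kinds of enriched gene: Aqp7, Meox2 and Rbp7, which did not follow the sarcomere genes, and cardiac actin Actc1, which did. Each is the 250 bases before the gene's start as RefSeq lists it for GRCm38.p6, 5′ to 3′ on the gene's strand, at chr4:41048137-41048386 (minus) for Aqp7, chr12:37108290-37108539 (plus) for Meox2, chr4:149454969-149455218 (minus) for Rbp7 and chr2:114052876-114053125 (minus) for Actc1. Aqp7 has 2 listed windows, of which the first is printed. Capitals mark matches to the motifs searched, other than CANNTG.
Aqp7: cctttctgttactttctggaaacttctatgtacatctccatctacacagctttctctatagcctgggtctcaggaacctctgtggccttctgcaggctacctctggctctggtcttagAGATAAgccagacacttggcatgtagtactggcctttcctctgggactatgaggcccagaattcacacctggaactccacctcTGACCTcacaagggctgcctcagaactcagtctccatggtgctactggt
Meox2: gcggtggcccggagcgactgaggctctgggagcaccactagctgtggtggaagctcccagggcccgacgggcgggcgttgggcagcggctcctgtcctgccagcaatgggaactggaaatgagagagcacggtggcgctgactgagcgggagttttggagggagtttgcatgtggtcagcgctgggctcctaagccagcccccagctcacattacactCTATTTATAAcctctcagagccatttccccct
Rbp7: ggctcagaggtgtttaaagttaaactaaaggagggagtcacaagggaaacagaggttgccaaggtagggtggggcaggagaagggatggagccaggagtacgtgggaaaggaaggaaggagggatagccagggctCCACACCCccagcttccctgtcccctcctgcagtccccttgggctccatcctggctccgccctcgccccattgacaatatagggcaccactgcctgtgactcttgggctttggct
Actc1: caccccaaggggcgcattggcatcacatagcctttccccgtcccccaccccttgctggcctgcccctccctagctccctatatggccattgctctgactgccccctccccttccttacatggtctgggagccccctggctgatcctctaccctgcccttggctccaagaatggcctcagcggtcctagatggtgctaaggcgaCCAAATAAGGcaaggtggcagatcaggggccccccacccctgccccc

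All motifs were searched on both strands. The half-site of nuclear receptors such as PPARγ was written AGGTCA. The core bound by many homeobox factors was written TAATTA. The E-box of helix-loop-helix factors such as Tcf15 was written CANNTG. For GATA factors the core AGATAA was used. The TATA box was written TATAAA. For Klf factors the core GGGTGTGG was used. The MEF2 site and the CArG box bound by serum response factor, both muscle promoter motifs, were searched in their usual form, and a MEF2 site can hold the TATA box letters. In Aqp7, TGACCT, the other strand of AGGTCA, lies 49 to 44 bases before the start and AGATAA 132 to 127 bases before it. In Meox2, a MEF2 site, CTATTTATAA, lies 32 to 23 bases before the start and holds TTTATA, the other strand of TATAAA. In Rbp7, CCACACCC, the other strand of GGGTGTGG, lies 115 to 108 bases before the start. In Actc1, a CArG box, CCAAATAAGG, lies 47 to 38 bases before the start. These matches describe letters in a window and show no binding.

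Among 15614 tested genes with a listed promoter, a MEF2 site was present in 2.48% and a CArG box in 1.25%. Of 39 following enriched genes with a promoter, 6 held a MEF2 site (15.4%) and 3 a CArG box (7.69%). Of 14 sarcomere genes with a promoter, 3 held a MEF2 site (21.4%) and 4 a CArG box (28.6%). Of 99 enriched genes that did not follow, 2 held a MEF2 site (2.02%) and 2 a CArG box (2.02%). AGGTCA was found in 9 of those 99 (9.09%), in 2 of the 39 that followed (5.13%) and in 12.2% of all promoters. AGATAA was found in 8 of the 39 (20.5%), 7 of the 99 (7.07%) and 8.75% of all, and CANNTG in 82.1% of the 39, 68.7% of the 99 and 61.8% of all. TAATTA was found in 2 of the 99 (2.02%), 2 of the 39 (5.13%) and 4.12% of all. GGGTGTGG was found in 5.13% of the 39, 4.04% of the 99 and 3.41% of all, and TATAAA in 7.69%, 13.1% and 11.2%. The following genes include 10 of the sarcomere genes. In both the 39 and the 99 the share with AGGTCA was below that of all promoters. The shares with CANNTG, GGGTGTGG or a CArG box were above it in both. For a MEF2 site, AGATAA and TAATTA the share was above that of all promoters in the 39 and below it in the 99. For TATAAA it was the reverse. None of these shares was tested.

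The genes of fatty acid handling led the enriched genes that did not follow the sarcomere genes. Aqp7 (probe set 10512145), a channel for glycerol and water, read 10.31, 10.60, 10.56, 10.38 and 10.84 in heart arrays 1 to 5, 4.86, 5.06, 5.32, 4.95 and 4.87 in brain and 5.24, 5.05, 5.19, 5.05 and 5.24 in liver. The groups were far apart, and heart 1, the array richest in sarcomere RNA, had the lowest Aqp7 level of the 5. The difference from liver, the nearer tissue, was 5.38 on the log2 scale (SE 0.11, adjusted p = 1.7e-16), a 41.7-fold difference. Folds here and below are 2 to the power of the log2 difference from the nearer tissue.

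Lipoprotein lipase, Lpl, frees fatty acids from triglycerides in the blood. Its levels were 11.10, 10.65, 11.28, 10.91 and 11.20 in heart, 6.69, 5.26, 6.58, 7.01 and 6.85 in brain and 6.17, 5.11, 6.90, 6.29 and 5.89 in liver. Replicate 2 was the lowest of its group in every tissue, and all heart arrays lay above all others. The difference from brain was 4.55 (SE 0.31, adjusted p = 5.7e-09), or 23.5-fold, and the slope on the sarcomere mean was 0.10.

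Pparg, the nuclear receptor of fat storage genes, read 10.34, 9.87, 10.45, 9.94 and 10.01 in heart, 5.42, 5.57, 5.36, 5.88 and 5.35 in brain and 6.69, 6.76, 7.08, 6.52 and 6.39 in liver. Heart stood above liver by 3.43 (SE 0.14, adjusted p = 4.2e-12; 10.8-fold) and further above brain. Its slope was 0.31, with heart 3 and heart 1 the highest of the heart arrays, so a part of its spread ran with the sarcomere genes.

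Cd36, the fatty acid translocase, and Fabp4, a fatty acid binding protein, showed another pattern, high in heart and liver alike and low in brain. Fabp4 read 12.53, 12.58, 12.51, 12.51 and 12.33 in heart, 6.74, 6.32, 6.98, 8.25 and 5.77 in brain and between 10.91 and 11.23 in the 5 liver arrays. Heart and liver did not overlap, and heart was 2.81-fold higher (log2 1.49, SE 0.30, adjusted p = 0.0009). Cd36 was 2.10-fold above liver, with heart at 12.37 ± 0.13, liver at 11.30 ± 0.14 and brain at 4.13 ± 0.38. Fabp5, a relative of Fabp4, read 10.30, 10.48, 10.44, 10.63 and 10.67 in heart and 9.73, 9.77, 10.18, 10.07 and 10.32 in liver, where the ranges met; its difference of 0.49 (adjusted p = 0.041) passed the test but was under the minimum size. Gpihbp1, which moves the lipase across the endothelial cell, was 11.31 ± 0.15 in heart and 11.74 ± 0.06 in liver and was not called.

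Over the whole list of 26 measured genes of fatty acid uptake and storage, 9 were enriched and 0 depleted, beside 0.908% and 0.311% of all genes. The list was chosen with earlier results of these data known, so its counts and means are descriptions. Aqp7, Meox2, Lpl and Tcf15 among the 9 are markers of heart endothelium named above. Meox2, Tcf15 and Pparg are also counted on the list of transcription factors below. The list's median difference was 0.35 from brain and 0.34 from liver, while the median over all genes was 0.03 against each. Mgll, which splits monoglycerides, was also enriched (3.24-fold; 11.35 ± 0.11 in heart), and Lipe, the hormone-sensitive lipase, was higher without reaching the minimum size (1.40-fold). The list's mean over heart arrays 1 to 5 was 8.56, 8.33, 8.61, 8.30 and 8.41, against 6.53 ± 0.10 in brain and 7.25 ± 0.06 in liver. Of the 9 enriched members, Fabp3 alone followed the sarcomere genes; it is described with them below.

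Of 19 genes that oxidise fatty acids, 0 were enriched and 0 depleted by limma; 4 were lower than in brain and liver without reaching the minimum size, beside 3.27% of all genes (Cpt2, Eci2, Etfb and Decr1, between 1.29-fold and 1.53-fold). The other 15 did not pass the test in either direction. The oxidation list's mean was 7.67 ± 0.11 in heart, 8.09 ± 0.12 in brain and 7.81 ± 0.11 in liver.

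**Figure D2:**
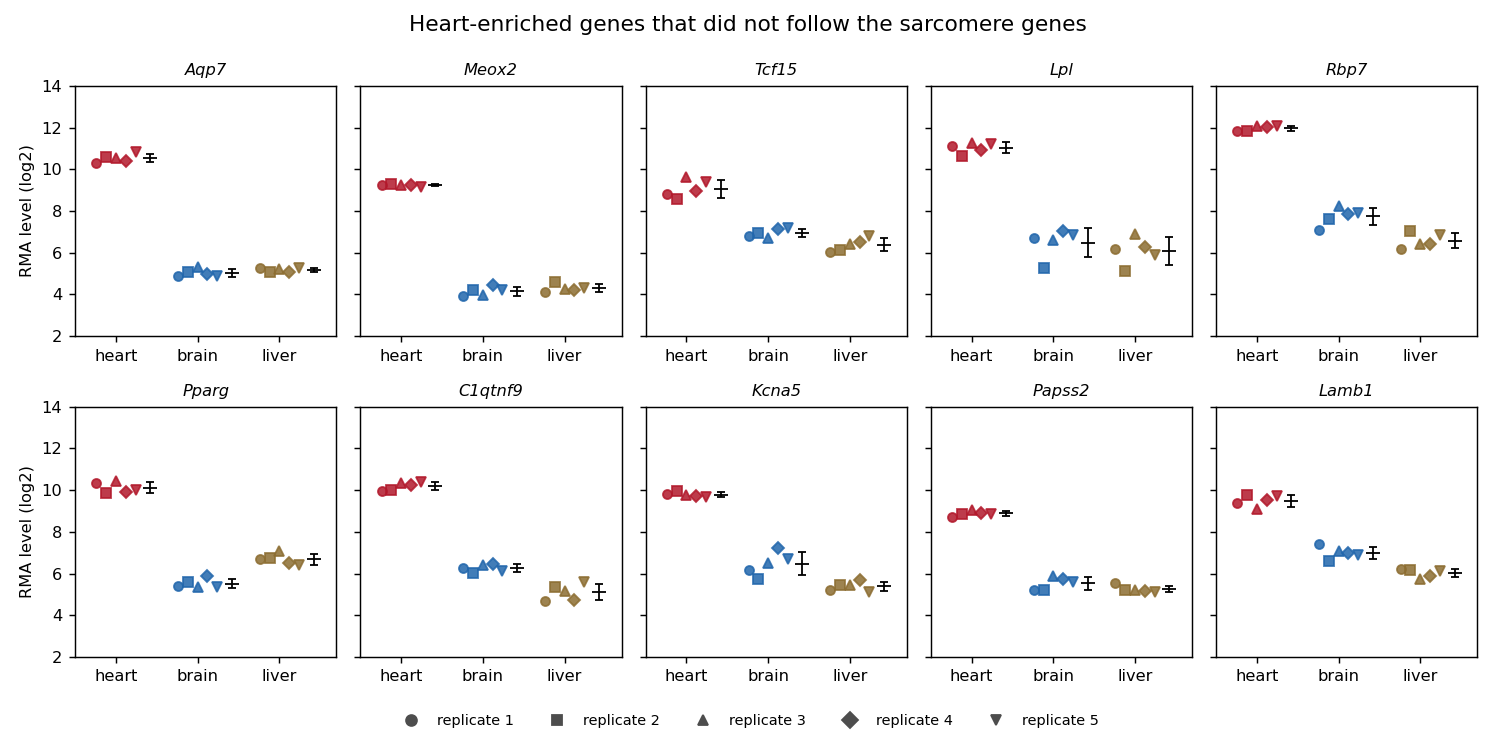
RMA level (log2) of 10 enriched genes that did not follow the sarcomere genes, with a point for each array (shape gives the replicate number) and the mean ± SD of 5 arrays beside it. Every heart point lies above every brain and liver point in all 10 panels, and the heart points of Meox2, Kcna5 and Papss2 lie close together, with SDs of 0.05 to 0.13.

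Transcription factors were also among the leading enriched genes. Meox2 (probe set 10395409), a homeobox factor, read 9.24, 9.31, 9.24, 9.24 and 9.16 in heart, 3.90, 4.18, 3.95, 4.43 and 4.19 in brain and 4.12, 4.60, 4.25, 4.18 and 4.30 in liver. The 5 heart arrays differed by less than the arrays of either other tissue did, and the slope on the sarcomere mean was 0.02. The difference from liver was 4.95 (SE 0.10, adjusted p = 3.3e-16), or 30.9-fold.

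Tcf15, a basic helix-loop-helix factor, was more variable, at 8.82, 8.56, 9.61, 8.95 and 9.38 in heart, 6.79, 6.93, 6.68, 7.11 and 7.15 in brain and 6.03, 6.11, 6.43, 6.52 and 6.79 in liver. Heart 3 was highest and heart 2 lowest, an order unlike that of the sarcomere genes (slope -0.03). The lowest heart array lay above every other array, and the difference from brain was 2.13 (SE 0.18, adjusted p = 1.1e-07; 4.38-fold). Meox1, the paralog of Meox2, was graded over the tissues: 8.34, 9.16, 8.85, 8.60 and 8.35 in heart, 7.62, 7.63, 7.43, 7.36 and 7.19 in brain and 5.74, 5.59, 5.48, 5.27 and 6.00 in liver. It was 2.32-fold above brain (log2 1.22, SE 0.16, adjusted p = 1.9e-05) and 3.04 above liver on the log2 scale, so that, unlike Meox2, it stood at an intermediate level in brain.

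Of 44 transcription factors on the list, 5 were enriched and 0 depleted, beside 0.908% and 0.311% of all genes. The 5 were Meox2, Pparg, Tcf15, Meox1 and Gata6 (2.22-fold, 8.09 ± 0.29 in heart), a GATA factor of heart and vessels. Without reaching the minimum size, Hoxd8 and Mef2c were higher, and the venous factor Nr2f2 and the hypoxia factor Hif1a were lower. The list's median difference was -0.04 from brain and 0.38 from liver. Ebf3, a helix-loop-helix factor outside the list, was 8.13, 7.94, 8.51, 8.08 and 7.81 in heart, 5.48 ± 0.09 in brain and 5.29 ± 0.22 in liver, 6.14-fold higher. Wt1, a zinc finger factor of the epicardium, was 9.34, 8.61, 8.80, 8.45 and 8.61 in heart, 6.21 ± 0.20 in brain and 6.28 ± 0.28 in liver, 5.57-fold higher with a slope of 0.46. Heart 1 was the highest for Wt1, and the other arrays lay close together. The list of mesothelial and epicardial markers to which Wt1 belongs had 0 other enriched members of 8, and its mean was 5.28, 5.21, 5.25, 5.26 and 5.30 over the heart arrays; which cells carried Wt1 was not tested.

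On the list of retinoid handling 1 gene was enriched. Rbp7, a retinol binding protein inside cells, read 11.82, 11.83, 12.09, 12.01 and 12.06 in heart, 7.09, 7.60, 8.22, 7.83 and 7.91 in brain and 6.17, 7.04, 6.43, 6.40 and 6.86 in liver. The heart arrays were close together and far above the rest, by 4.23 over brain (SE 0.18, adjusted p = 1.1e-11; 18.8-fold). Of 20 measured genes of the retinoid list it was the only member enriched, beside 0.908% of all genes. Crabp2, a retinoic acid binding protein, was 1.27-fold higher (adjusted p = 0.049). Rbp4, which carries retinol in blood, was 4.92 ± 0.24 in heart, 5.12 ± 0.40 in brain and 6.45 ± 0.48 in liver and was not called.

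Among secreted factors, C1qtnf9, an adiponectin relative, read 9.95, 10.01, 10.35, 10.26 and 10.38 in heart, 6.24, 6.02, 6.41, 6.47 and 6.12 in brain and 4.70, 5.36, 5.17, 4.75 and 5.61 in liver. Heart lay above brain by 3.93 (SE 0.16, adjusted p = 3.9e-12; 15.3-fold), with heart 1 the lowest of its group and a slope of -0.15. Of 31 growth factors for neighbouring cells, C1qtnf9 and Igf2 (2.04-fold) were enriched and 0 depleted, beside 0.908% and 0.311% of all genes. Igf2 lost its call without heart 1, brain 4 or brain 5. Another 5 were higher at 1.15-fold to 1.85-fold, among them Fgf2 and Apln, and Bmp2 was lower. Neurotensin, Nts, a peptide of gut and brain, read 7.12, 7.27, 6.88, 7.13 and 5.93 in heart, with brain at 3.84 ± 0.08 and liver at 4.05 ± 0.12. Heart 5 was below the other heart arrays but above all of brain and liver, and the gene was 7.05-fold higher.

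Receptors and channels of vascular tone were also among the enriched genes. Kcna5, a voltage-gated potassium channel, read 9.82, 9.94, 9.77, 9.72 and 9.68 in heart, 6.17, 5.74, 6.49, 7.21 and 6.70 in brain and 5.19, 5.44, 5.44, 5.68 and 5.13 in liver, with the least spread in the tissue where it was high. The difference from brain was 3.33 (SE 0.19, adjusted p = 7.4e-10), or 10.02-fold. Of 26 genes of vasoactive signalling, 4 were enriched and 1 depleted, beside 0.908% and 0.311% of all genes. The enriched ones were the natriuretic peptide clearance receptor Npr3 (3.25-fold), the guanylate cyclase subunit Gucy1a1 (2.56-fold), the receptor partner Ramp3 (2.33-fold) and the prostaglandin receptor Ptger4 (2.15-fold), and the ADP receptor P2ry1 was 2.29-fold lower. Of these 4, Gucy1a1 followed the sarcomere genes (slope 0.74). The related adrenomedullin partner Ramp2 was 1.57-fold lower, so the 2 Ramp genes moved in opposite directions.

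Of 22 genes of VEGF and angiopoietin signalling, the apelin receptor Aplnr was enriched (3.15-fold; 10.59 ± 0.40 in heart, slope -0.53), and 3 others were higher without reaching the minimum size, among them its ligand Apln and Vegfa. With centring on the pan-endothelial genes, or without heart 1 or brain 3, 2 members of this list were enriched. Flt4 was among 3 that were lower. Of 25 Notch and arterial genes, Cxcr4, a chemokine receptor, was enriched (3.39-fold), and the arterial ligand Efnb2 missed the minimum by little (1.98-fold); with the arrays normalized again or centred on the pan-endothelial genes, or without heart 2, 3 or 4 or brain 1 or 3, 2 members of the list were enriched. Of 12 venous genes, Aplnr, which is also on this list, was enriched, and Nr2f2, Flt4 and Ackr1 were lower. Arterial and venous lists thus each gave 1 enriched gene, and 0 were depleted, beside 0.908% and 0.311% of all genes. Of 12 endocardial markers, Npr3 was enriched and Adgrg6, an adhesion receptor, was depleted; the list's median difference was -0.38 from brain and 0.43 from liver.

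Structural genes of the capillary wall gave few calls, to be read beside 0.908% enriched and 0.311% depleted among all genes. Of 13 genes of caveolae and diaphragms, Ehd2 (2.59-fold) and the caveolar coat gene Cav1 (2.14-fold; 11.65 ± 0.07 in heart, 10.55 ± 0.07 in brain, 8.70 ± 0.09 in liver) were enriched. The list's median difference was 0.27 from brain and 0.39 from liver. Cav2 and Cavin2 were higher at 1.66-fold and 1.20-fold, and Dnm2, which pinches vesicles off, was 1.22-fold lower. Of 26 genes of basement membrane and matrix, whose median difference was 0.03 from brain and 0.72 from liver, Lamb1, the laminin β1 chain, was enriched. It read 9.37, 9.78, 9.08, 9.53 and 9.74 in heart, 7.40, 6.59, 7.07, 6.98 and 6.87 in brain and 6.21, 6.16, 5.73, 5.90 and 6.12 in liver. No array of another tissue reached the lowest heart array, heart 3, and the difference from brain was 2.52 (SE 0.15, adjusted p = 1.1e-09; 5.73-fold). Another 8 were higher at 1.37-fold to 1.77-fold, among them the collagens Col4a1 and Col15a1, the laminin γ1 chain Lamc1 and perlecan, Hspg2. Ecm1 was depleted (2.22-fold lower), a call lost when the arrays were centred on the pan-endothelial genes. Of 18 matrix proteases and inhibitors, Adamts9 (4.70-fold), Adamts5 (2.97-fold) and Timp4 were enriched; all 5 other probe sets named Adamts9 also passed the minimum difference, at 1.45 to 2.77 on the log2 scale.

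Several leading genes belong to none of the lists. Papss2, which makes the sulphate donor of sulphotransferases, read 8.72, 8.85, 9.07, 8.92 and 8.86 in heart, 5.53 ± 0.30 in brain and 5.25 ± 0.16 in liver, 10.2-fold higher. Ablim3, an actin binding protein, was 8.63 ± 0.36 in heart and 17.3-fold higher, with a slope of 0.44, just under the limit. Enpp3, an ectonucleotidase, was 10.1-fold higher, as was Nav3, a microtubule protein. The nucleoside transporter Slc28a2 was 8.28-fold and its neighbour in the genome Slc28a2b 2.87-fold higher. Airn, the long non-coding RNA that overlaps Igf2r in the antisense direction, was 10.13 ± 0.22 in heart, 6.85 ± 0.44 in brain and 6.10 ± 0.34 in liver, 9.71-fold higher, and Igf2r itself was 3.75-fold higher. Akap5, an anchor for protein kinase A, was 6.99-fold, Cped1 7.95-fold and the nuclease family member Eepd1 5.68-fold higher. Whether the probes tell overlapping or near-identical transcripts apart was not tested.

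The 132 enriched genes that did not follow had a median SD among heart arrays of 0.24 and a median slope of 0.02. For 130 of them all heart arrays lay above all other arrays, as they did for 544 of all genes (2.73%); the enriched calls rest on the same arrays, so nothing is read from this count. Brain was the nearer tissue for 93 and liver for 39. Brain and liver differed from each other by the same rule for 31 of the 132 (23.5%), against 7.38% of all genes. Of the 132, 2 were on a list of markers of other cell types, Wt1 and the fibroblast gene Mfap5 (slope 0.14), beside 121 of all 19938 genes tested. Igfbp5, Adamts5 and Cdr2 lay just under the slope limit, at 0.50, 0.49 and 0.47.

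The 49 enriched genes that followed were led by the contractile apparatus. Of the 16 sarcomere genes themselves 10 were enriched, beside 0.908% of all genes. All 10 followed, which the construction of the slope favours. Myl2, the ventricular myosin light chain, read 11.40, 10.56, 11.01, 9.73 and 9.74 in heart arrays 1 to 5, 4.44 ± 0.08 in brain and 4.42 ± 0.12 in liver. Even the lowest heart arrays lay far above the other tissues, and the difference was 6.05 (SE 0.24, adjusted p = 3.9e-12; 66.2-fold). Actc1, cardiac actin, read 11.88, 10.48, 11.19, 9.05 and 9.12 in heart, 5.71 ± 0.16 in brain and 5.88 ± 0.11 in liver, 22.1-fold higher with a slope of 1.94. Tnnt2, Tnnc1, Myoz2 and Myl3 were 33.7-fold, 15.5-fold, 8.98-fold and 8.41-fold higher.

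Cardiomyocyte genes outside the sarcomere went the same way. Of 24 measured, 10 were enriched, all of them following (6 without heart 1 and heart 3): the oxygen store Mb (5.93-fold), Cox8b, Fabp3, Ankrd1, Pln, Cox7a1, Smpx, Casq2, Ckmt2 and Csrp3. Their mean over heart arrays 1 to 5 was 7.59, 6.86, 7.27, 6.52 and 6.48. Fabp3, the fatty acid binding protein of muscle, read 9.19, 7.24, 8.62, 6.28 and 6.11 in heart, 5.48, 5.19, 5.79, 5.53 and 5.34 in brain and 4.49, 5.12, 4.94, 5.00 and 5.39 in liver. Heart 1 and heart 3 were far above the rest, while heart 4 and heart 5 lay only a little above the highest brain array. Its slope was 2.02 and its difference from brain 2.02 as well (SE 0.45, adjusted p = 0.0038), in contrast to Fabp4 with a slope of 0.06 and Fabp5 with -0.22. The list of atrial cardiomyocyte genes had 0 of 6 enriched, beside 0.908% of all genes.

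**Figure D3:**
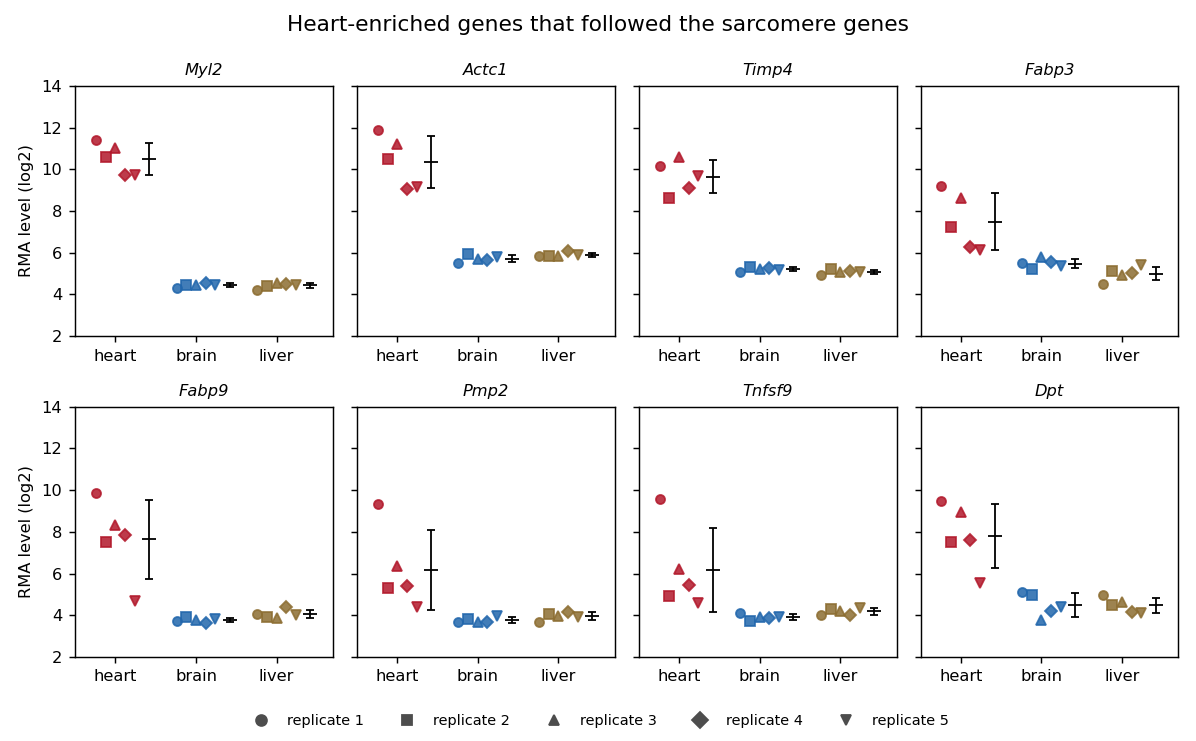
RMA level (log2) of 8 enriched genes that followed the sarcomere genes, drawn as points per array (shape gives the replicate number) with the mean ± SD of 5 arrays. The heart points are spread widely, from 4.67 to 9.88 for Fabp9, with heart 1 the highest in every panel except that of Timp4.

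The list means of fibroblast and of pericyte markers were highest in heart 1 and next highest in heart 3. The fibroblast mean had a slope of 0.54 on the sarcomere mean, and 0.34 without heart 1. For the pericyte mean the slope was 0.65, and 0.63 without heart 1. A slope of 0.5 was reached by 5 fibroblast markers (list median 0.35) and 9 pericyte and smooth muscle markers (list median 0.68), beside 2.22% of all genes. Of 12 fibroblast markers 5 were enriched (Dpt, Postn, Dcn, Lum and Mfap5) and 0 depleted, beside 0.908% and 0.311% of all genes. The list's mean was 7.47, 6.71, 6.94, 6.73 and 6.34 over heart arrays 1 to 5, against 5.57 ± 0.20 in brain and 5.67 ± 0.18 in liver. Dpt, dermatopontin of the connective tissue matrix, read 9.49, 7.49, 8.95, 7.61 and 5.53 in heart, 4.48 ± 0.56 in brain and 4.48 ± 0.36 in liver. Heart 5 stood apart from the other heart arrays and close to the highest brain array, and the gene was 10.04-fold higher on average (log2 3.33, SE 0.52, adjusted p = 0.00015).

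Of 14 pericyte and smooth muscle markers 3 were enriched, beside 0.908% of all genes, namely Rgs5 (3.33-fold), Pdgfrb (2.12-fold) and Kcnj8 (2.01-fold). Their list mean was 8.01, 7.40, 7.72, 7.29 and 6.70 over the heart arrays, 6.75 ± 0.58 in brain and 6.14 ± 0.04 in liver. Acta2 and Myh11 of smooth muscle were as high in brain as in heart, at 8.53 ± 1.12 against 8.42 ± 0.51 and at 8.34 ± 1.12 against 8.48 ± 0.62. Kcnj8 was no longer called without heart 1, 3 or 4 (adjusted p = 0.082, 0.088 and 0.055), without liver 1, 3 or 4, with array weights or with centring. Without heart 1 or heart 3, 1 of the 14 markers was enriched, as it was without brain 5; without both heart arrays, 0 were.

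Several other cell types had no enriched marker. Macrophage, lymphoid, platelet, red cell and Schwann cell markers had 0 enriched members of 12, 8, 7, 3 and 5, beside 0.908% of all genes. At that share lists this short seldom hold a call, so nothing about these cell types is read from the counts. The brain parenchymal list had 0 of 14 called in either direction. The macrophage mean was 5.49 ± 0.26 in heart against 7.29 ± 1.00 in liver, and an enriched gene had to lie above liver.

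Some following genes mark neither muscle nor the wall cells of vessels. Timp4, an inhibitor of matrix metalloproteinases, read 10.18, 8.63, 10.59, 9.12 and 9.65 in heart, 5.20 ± 0.10 in brain and 5.08 ± 0.10 in liver. Heart 3 and heart 1 were the highest, but heart 5, which was low in sarcomere RNA, lay above heart 4 and heart 2. The slope was 0.72, or 0.49 to 0.98 when 1 heart array at a time was left out. The difference from brain was 4.44 (SE 0.25, adjusted p = 5.3e-10; 21.6-fold), and 3.93 without heart 1 and heart 3. Its neighbour in the genome, Pparg, had a slope of 0.31.

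Fabp9 and Pmp2, 2 fatty acid binding proteins that lie side by side with Fabp4 in the genome, varied widely. Fabp9 read 9.88, 7.51, 8.35, 7.85 and 4.67 in heart, 3.77 ± 0.11 in brain and 4.06 ± 0.19 in liver. Pmp2, known from the myelin of peripheral nerve, read 9.33, 5.30, 6.38, 5.39 and 4.41 in heart and was 4.58-fold higher with a slope of 2.47. For both genes heart 1 was far above and heart 5 close to the other tissues, and the order of the arrays was 1, 3, 4, 2, 5, while Fabp4 between 12.33 and 12.58 hardly varied. That order was shared by 11 of the 49 following genes, among them Dpt and the matrix gene Aspn; the order 1, 3, 2, 4, 5 was found in 18 and the order of the sarcomere mean, 1, 3, 2, 5, 4, in 9. The 5 measured Schwann cell markers had a mean of 5.64 ± 0.07 in heart. Tnfsf9, a costimulatory ligand, read 9.58, 4.92, 6.24, 5.43 and 4.58 in heart and had the steepest slope, 2.49.

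Immediate-early and heat shock genes, which respond quickly to stress and to the handling of cells, moved in the same arrays. Of 23 measured, 0 were enriched or depleted, beside 0.908% and 0.311% of all genes. Their mean was 10.11, 8.53, 9.01, 8.70 and 8.17 in heart arrays 1 to 5, 9.32 ± 0.17 in brain and 8.24 ± 0.42 in liver. By the slope 16 of the 23 followed the sarcomere genes, beside 2.22% of all genes, with Fosb at 2.22, Atf3 at 2.06 and Egr2 at 2.04. The slope of the list was 0.94, and 0.46 without heart 1. With this list's mean in place of the sarcomere mean, 56 of the 181 enriched genes reached a slope of 0.5, and all 49 following genes were among them. The sarcomere, fibroblast, pericyte and immediate-early lists were all highest in heart 1 and next highest in heart 3. Over the 49, the list mean with the smallest residual was that of the sarcomere genes for 21, pericytes for 11, fibroblasts for 9 and immediate-early genes for 8; the 49 were chosen by their slope on the sarcomere mean and include 10 sarcomere genes, which favours that list. The part of each in the result was not tested. In contrast, the pan-endothelial mean was 9.92, 9.96, 9.88, 9.92 and 9.99 and proliferation genes ran the other way (6.22, 6.89, 6.21, 6.73 and 6.37), as the plot of list means shows.

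**Figure D4:**
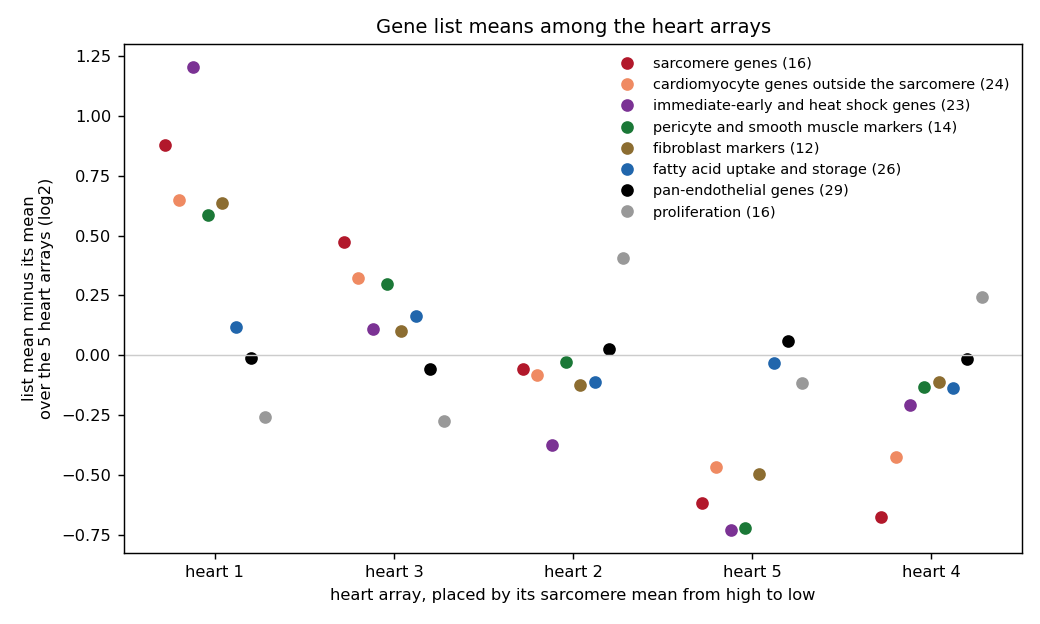
Mean of 8 gene lists in each heart array, as the difference from the list's own mean over the 5 heart arrays (log2, vertical axis), with the arrays placed from the highest to the lowest sarcomere mean; the number of genes stands in brackets. Sarcomere, cardiomyocyte, immediate-early, pericyte and fibroblast lists lie above 0 in heart 1 and heart 3, the pan-endothelial list stays near 0, and proliferation genes are highest in heart 2.

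The 49 following genes had a median SD among heart arrays of 0.79 and a median slope of 1.05. In 36 of them (73.5%) the mean of brain and liver was under 6 on the log2 scale, where 48.0% of all genes lay, against 63 of the 132 that did not follow (47.7%). Markers of other cell types made up 28 of the 49, beside 121 of all 19938 genes tested. The 28 include 10 of the sarcomere genes on which the slope was built. All heart arrays lay above all others for 34 of the 49, as they did for 544 of all genes (2.73%). The enriched calls rest on the same arrays, so nothing is read from this count. Of the 49, 39 kept a slope of at least 0.5 whichever heart array was left out. Without heart 1 and heart 3 together, 26 of the 49 and 119 of the 132 were still enriched, as were 8 of the 10 sarcomere genes. Gm11517, Lum and Hspa2 lay just above the slope limit, at 0.62, 0.60 and 0.57, and were highest in heart 1, where Gm11517 read 8.64 against 6.73 to 7.16 in the other 4 heart arrays.

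Metal ion handling led the genes depleted in heart. Slc40a1, ferroportin, the only known exporter of iron from cells, read 4.69, 5.13, 4.67, 4.87 and 4.71 in heart, 10.30, 9.61, 10.13, 9.87 and 10.11 in brain and 10.54, 10.27, 10.47, 10.47 and 10.11 in liver. The heart arrays were all near 5 and the others all near 10, a difference of -5.19 from brain (SE 0.13, adjusted p = 5.7e-15), or 36.5-fold. Slc39a8, an importer of zinc and other metals, read 5.33, 5.29, 5.51, 5.35 and 4.66 in heart, 8.89 ± 0.18 in brain and 9.11 ± 0.21 in liver, 12.7-fold lower. The copper importer Slc31a1 read 6.52, 6.27, 6.10, 5.97 and 6.03 in heart, 9.46 ± 0.23 in brain and 8.75 ± 0.26 in liver, 5.94-fold lower. For all 3 transporters every heart array lay below every brain and liver array, as it did for 419 of all genes (2.1%); since the 3 were named for their differences on these arrays, this is a description.

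The metallothioneins, which bind zinc and copper, were depleted but uneven. Mt2 read 8.09, 4.96, 6.00, 5.55 and 4.75 in heart, 10.73, 10.48, 10.48, 11.11 and 10.73 in brain and 11.09, 10.55, 10.64, 10.48 and 10.69 in liver. Heart 1 was the highest heart array and still below all others, and the slope was 1.62. The difference from liver was -4.82 (SE 0.43, adjusted p = 1.2e-07; 28.2-fold), and -5.60 without heart 1 and heart 3. Mt1 read 8.69, 6.61, 7.50, 7.04 and 6.73 in heart, 10.28 ± 0.13 in brain and 10.85 ± 0.19 in liver, 7.84-fold lower, with the same order of arrays except at the low end. Of 26 genes of metal ion handling 5 were depleted, the 5 named above, beside 0.311% of all genes; 3 others were lower without reaching the minimum size, among them the copper pump Atp7a (1.35-fold). Steap4, a metalloreductase, was enriched (3.30-fold) and followed the sarcomere genes, and Slc39a14, a relative of Slc39a8, was 1.69-fold higher. The list's median difference was -0.37 from brain and -0.24 from liver. The transferrin receptor Tfrc was not called, since heart, at 6.72 ± 1.38, lay between brain and liver.

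Among genes of creatine and amino acid supply, 2 of 22 were depleted and 0 enriched, beside 0.311% and 0.908% of all genes. Gatm, the first enzyme of creatine synthesis, read 6.69, 6.07, 5.77, 5.67 and 5.63 in heart, 10.80, 10.34, 10.78, 10.75 and 11.14 in brain and 11.45, 12.03, 11.62, 11.50 and 11.81 in liver. All heart arrays were far below the others, by 4.79 in the case of brain (log2 difference -4.79, SE 0.19, adjusted p = 2.5e-12; 27.7-fold). Slc7a5, a carrier of large neutral amino acids, read 8.20, 6.40, 6.74, 6.99 and 6.02 in heart, 11.83 ± 0.17 in brain and 9.33 ± 0.13 in liver, 5.51-fold below liver, and its partner chain Slc3a2 was 1.93-fold lower. Slc7a8 was lower, and Slc1a5 and Asns were higher, without reaching the minimum size. The list's median difference was -0.23 from brain and 0.13 from liver.

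**Figure D5:**
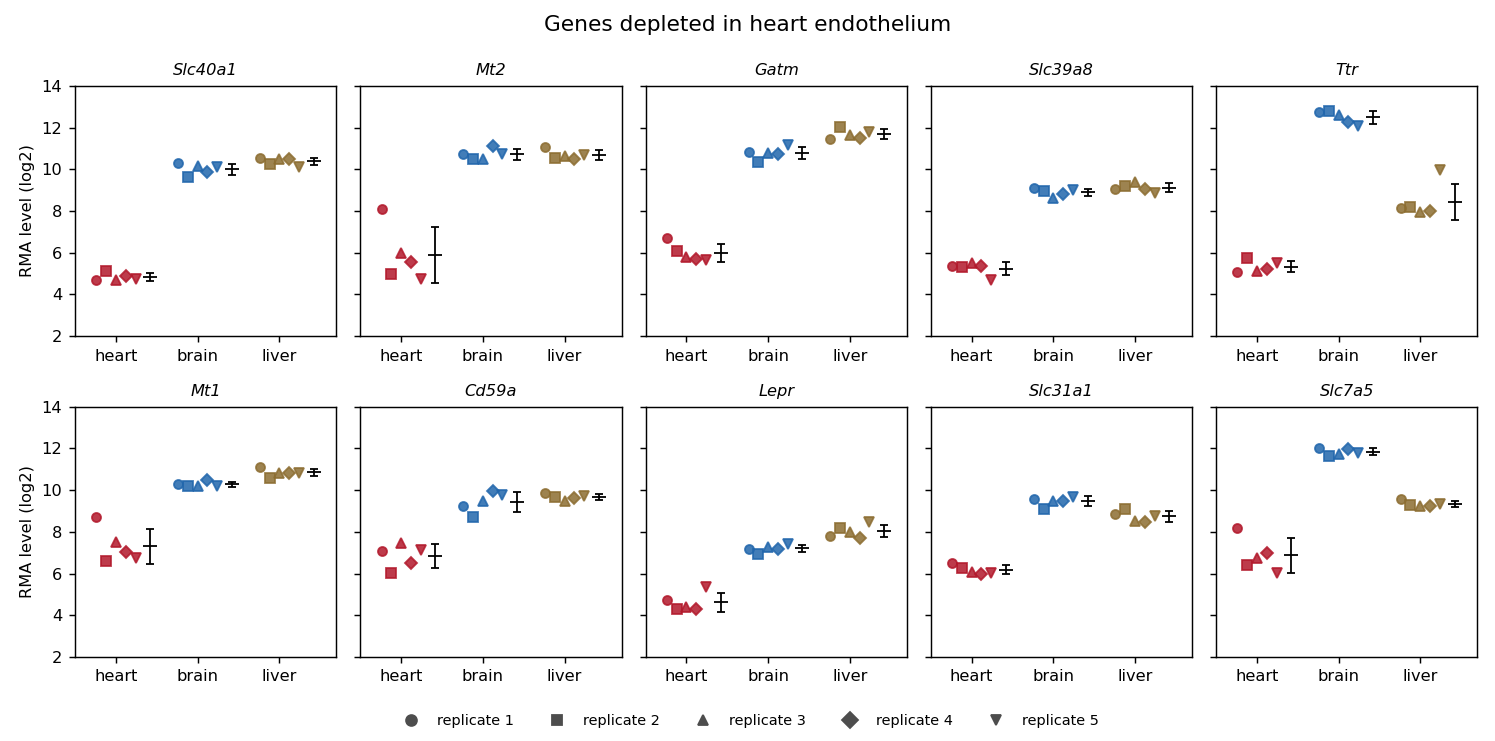
RMA level (log2) of 10 genes depleted in heart, drawn as points per array (shape gives the replicate number) with the mean ± SD of 5 arrays. In all 10 panels every heart point lies below every brain and liver point; Mt2, Mt1 and Slc7a5 have their highest heart point in heart 1.

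Other depleted genes act at the cell surface or come from organ-specific programmes. Cd59a, an inhibitor of the complement membrane attack complex, read 7.10, 6.03, 7.45, 6.48 and 7.13 in heart, 9.43 ± 0.48 in brain and 9.67 ± 0.14 in liver, 6.01-fold lower. The leptin receptor Lepr read 4.75, 4.29, 4.38, 4.31 and 5.36 in heart, 7.20 ± 0.17 in brain and 8.04 ± 0.30 in liver, 6.00-fold lower. Both were separated from the other tissues in every array. Serpinb6b, a protease inhibitor, was 4.94-fold and Adgrg6 4.50-fold lower. Ttr, a thyroid hormone carrier made by liver and choroid plexus, read 5.07, 5.73, 5.11, 5.23 and 5.49 in heart, 12.49 ± 0.30 in brain and 8.44 ± 0.87 in liver, 8.67-fold below liver. Ttr and Cyp2e1 (2.87-fold lower) are on the list of liver parenchymal markers, of which these 2 of 14 were depleted, beside 0.311% of all genes. The mean of that list was 5.08 ± 0.06 in heart, 5.65 ± 0.06 in brain and 7.32 ± 0.27 in liver. The part of parenchymal RNA in the 2 calls was not tested.

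Of the 62 depleted genes, 11 followed the sarcomere genes, so that their levels rose with the sarcomere mean among the heart arrays while lying below brain and liver on average; 3 of the 11 kept a slope of at least 0.5 whichever heart array was left out. Besides Mt2, Gatm, Mt1 and Slc7a5 they were Ctsc, Lbp, Asb4, Csrp2, Glul, Akip1 and Prkg1. All 11 were still depleted without heart 1 and heart 3. The 51 others had a median slope of 0.09, and Nr1d1, the clock repressor Rev-erbα, had the lowest slope of any called gene (-0.95). Lrg1, Tgfbr3 and B4galt5 lay just past the minimum difference, and Fuca2, 4931406C07Rik and Rtl8c just short of it. On the enriched side Kcnj8, Lama2 and Filip1l were just past it and Rgcc, Pdlim3 and Efnb2 just short of it.

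Several lists of endothelial functions held few or no called genes, to be read beside 0.908% enriched and 0.311% depleted among all genes. At those shares lists this short hold few calls, so nothing about the functions is read from these counts. Of 20 haemostasis genes 0 were enriched or depleted, with Anxa2 higher and Procr lower. Antigen presentation had 0 of 13 called in either direction and proliferation 0 of 16. Of 13 leukocyte adhesion genes Jam3, a junctional adhesion molecule, was enriched (2.08-fold), and without heart 2 it was not. Of 11 transporters of the blood-brain barrier, 0 were enriched and Slc7a5 was depleted; their median difference was -4.97 from brain and 0.33 from liver. Of 8 lymphatic endothelial markers 0 were enriched or depleted and Flt4 was lower. Of 7 adipocyte markers Fabp9 was enriched. These markers averaged 5.98 ± 0.23 over the heart arrays, 5.28 ± 0.09 over brain and 5.14 ± 0.08 over liver. Fabp9, which varied widely over the heart arrays, is part of these averages. The list's median difference was smaller, at 0.13 from brain and 0.16 from liver, and its median slope was -0.12.

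Neighbouring genes were called together in 14 pairs, taking the order of tested genes along the chromosomes from RefSeq. They included Pmp2 with Fabp9 and Fabp9 with Fabp4, Timp4 with Pparg, Igf2r with Airn, Dcn with Lum and Mt2 with Mt1. In several pairs the members had different slopes: Pln 1.05 and Cep85l 0.09, Ckmt2 1.05 and Rasgrf2 0.22, Abca8a 1.58 and Abca8b 0.47. In these 3 pairs a shared direction came with different slopes. For 11 called genes another probe set carried the same single symbol; of these 16 probe sets 11 passed the minimum difference in the same direction and 0 had the opposite sign, while those of Elf4, Filip1l and Rapgef1 differed by 0.03, 0.00 and 0.11.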

How the data were processed

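The authors deposited log2 levels of 35556 probe sets on 15 arrays, made by RMA with Affymetrix Power Tools per the submitters' processing notes; for their versions and the probe set build the answer is "not given in the sources used here". RMA makes array distributions nearly equal and compresses large differences. Depth has no meaning for arrays; 5 arrays per tissue limit the precision. GEO's platform annotation gave 1 symbol to 21789 probe sets, several to 1621 and none to 12146 (unnamed here). Of those with 1 symbol, 21698 matched RefSeq and 0 changed name. The probe set with the highest mean was kept for the 999 genes with more than 1, leaving 19938 genes.

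One fit of limma 3.58.1 (lmFit, eBayes; R 4.3.3) estimated the 3 tissue means from the 15 arrays together, with Benjamini-Hochberg adjustment over all genes in each contrast; adjusted p-values in the text come from it. Tested on simulated data made from these levels, it recovered 99% of genes changed by 1.5 and 100% of those changed by 3 on the log2 scale. The members and the 37 gene lists (573 of 614 genes measured) were chosen with earlier results of these data known. Named genes were the 5 markers, the leading 20 enriched genes that did not follow, the leading 10 that did, the leading 12 depleted genes, the 3 on each side of a threshold, called list members and the paralogs; Pmp2, Tnfsf9, Igf2r, Nr1d1, the other following depleted genes, neighbouring genes and those with other probe sets were added after their values were seen. Promoters of RefSeq (GRCm38.p6) were matched by symbol. Alternatives were other probe set rules, normalizations, filters, thresholds, sarcomere scores, array weights, a replicate block and leaving out arrays; the score from immediate-early genes was added after the data were seen.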

Additional observations from a re-analysis of the deposited data

Results flagged for a closer look

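Of 285 groups of 5 arrays examined, 21 held 1 array whose gap to the nearest other was large for the group's range by Dixon's criterion; chance gives about 1 in 20. Heart 1 was the high array for Hspa2 (9.89) and Gm11517 (8.64) and for the means of growth factors (6.83), vasoactive signalling (7.70) and creatine and amino acid supply (6.99), and heart 5 was the low array for Slc39a8 (4.66). In brain, replicate 2 was low for Lpl (5.26), Hspa2 (7.11) and the retinoid list mean (6.29), replicate 1 was low for Myoz2 (3.62) and high for Lum (4.81) and the fibroblast list mean (5.91). In liver, replicate 5 was low for Ablim3 (4.18) and high for Ttr (9.98), replicate 1 was high for Papss2 (5.53) and Slc7a5 (9.55), replicate 2 for Fabp4 (11.23) and the leukocyte adhesion mean (8.07), replicate 3 for Filip1l (8.22) and the proliferation mean (6.76), and replicate 4 for Actc1 (6.07). Heart 1, which also had the highest sarcomere and immediate-early means, was the array concerned in 5 of the 6 heart values. The part of other cell types or of immediate-early genes in these values was not tested.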

How the results depend on the processing

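The counts of 181 enriched, 62 depleted, 49 following and 132 not following genes depended mainly on the thresholds. A minimum log2 difference of 0.6 gave 366 enriched, 228 depleted and 294 not following, and one of 2 gave 47, 12 and 31, with 16 following. Keeping only genes with a mean of at least 6 left 25 following, and a slope threshold of 0.25 gave 74. Without both heart 1 and heart 3, 26 enriched genes followed; the slope class was kept from all 5 arrays, so this counts the calls lost. Leaving out 1 array at a time gave 164 to 195 enriched, 57 to 72 depleted, 36 to 64 following and 125 to 138 not following. The other settings, namely 2 other probe set rules, quantile normalization, centring, array weights, pairs of tissues alone, a slope threshold of 0.75, linear values and 2 other scores, kept these counts within 1.5 times. Centring each array on the pan-endothelial genes, whose means were 9.94, 10.10 and 9.90 in heart, brain and liver, gave 214 enriched and 55 depleted.

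The labels do not say that a replicate number marks a shared batch. Deviations of same-numbered arrays of different tissues correlated at -0.0005 to 0.204. Each array was set against the 5 arrays of another tissue, and in 9 of 15 such comparisons it correlated best with its own number. That is more often than random matching among 5 arrays would give, a hint from the data that falls short of pairing. Replicate 5 matched its own number in every pair of tissues. A replicate block gave 182 enriched and 62 depleted genes, of which 181 and 62 were those of the fit without it; 42 followed and 140 did not.

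Of 1380 values of the 58 named called genes under the alternatives, 1326 kept their call, 54 kept the direction but lost the call and 0 reversed; B4galt5, Cdr2, Filip1l, Gm11517, Kcnj8, Lama2, Lrg1 and Tgfbr3 lost it at least once. Of 1776 counts of called list members 34 moved by over 1.5 times; with a mean of at least 6, which removes low genes from the test, 6 sarcomere genes and 1 fibroblast marker were enriched. Macrophage and pan-endothelial markers gained 1 depleted member without heart 1. Where no such construction gives the reason, the cause was not tested.

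Signal over background per probe was not analysed here, so which of the lowest levels were above background was not tested. With 5 arrays a tissue, slopes rest on few points. The p-values measure the spread between these pooled samples, estimated over all tissues together.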

Other observations

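Some enriched genes that did not follow the sarcomere genes lie outside the groups described so far and were picked after their values were seen. Adh1, an alcohol dehydrogenase that also oxidises retinol, stood 4.08-fold above the nearer tissue. Cdh13, a cadherin that binds adiponectin, was 3.43-fold higher, in the same tissue in which C1qtnf9, an adiponectin relative, was high. Aoc3, the amine oxidase also called vascular adhesion protein, was 2.97-fold higher, and Prg4, the lubricin of joint surfaces, 4.10-fold higher. Peg3, a paternally expressed imprinted gene, was enriched, as were the imprinted genes Igf2, Igf2r and Airn; imprinted genes were not fixed as a list and their number among all genes was not counted.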
